A study of Mus musculus with 16 samples.

Results

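Voltage-gated sodium, calcium and HCN channel subunits were examined as 28 genes listed by name, out of 55385 genes in each deposited table, in RNA from primary mouse hippocampal cultures. All 28 were found by their Ensembl gene identifiers. The list holds 6 sodium channel alpha subunits, 3 sodium channel beta subunits, 8 calcium channel alpha1 subunits, 4 calcium channel beta subunits, 4 alpha2delta subunits and 3 HCN subunits, and it was chosen by gene family rather than by measured values. The cultures came from the hippocampi of newborn C57Bl/6N mice and received a recombinant adeno-associated virus that expressed a short hairpin RNA from the U6 promoter, with GFP under the chicken beta-actin promoter. The hairpin was either Control-shRNA or one against Dnmt3a1, the long isoform of the DNA methyltransferase gene Dnmt3a, which the study's text names as Dnmt3a1-shRNA2 for the sequenced cultures. Each shRNA was combined with baseline or with 4 h of bicuculline, a GABA-A receptor blocker that makes such cultures fire in synchronous bursts. This gave 16 libraries, 4 in each of the groups Control-shRNA baseline, Control-shRNA bicuculline, Dnmt3a1-shRNA baseline and Dnmt3a1-shRNA bicuculline, and all groups carried a virus. According to a figure legend of the study each library of a group was a separate neuronal preparation. The cultures were mixed, neither promoter restricts the construct to 1 neuronal type, and a lower RNA level can come from fewer cells of a type or from less RNA per cell, which bulk RNA cannot tell apart.

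Voltage-gated sodium channels carry the rising phase of the action potential: an alpha subunit forms the pore and beta subunits set its gating and its place in the membrane. Voltage-gated calcium channels turn depolarization into calcium entry through an alpha1 pore, with beta subunits and alpha2delta subunits that carry the pore to the membrane, and L-type alpha1 subunits are known for linking activity to transcription. HCN channels open on hyperpolarization, carry a mixed cation current and set resting potential and rhythm in hippocampal neurons.

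Library totals lay between 28912697 and 29586355 estimated counts. Levels are given as CPM, the estimated count relative to its library's total, which was scaled by TMM, edgeR's trimmed mean factor. Dnmt3a, the targeted gene, measured over all its transcripts, stood at 312 ± 13.8 CPM in Control-shRNA baseline and 44.5 ± 3.66 CPM in Dnmt3a1-shRNA baseline (SD, n = 4), and at 327 ± 11.8 and 45.3 ± 1.72 CPM with bicuculline. The activity-regulated genes Fos, Arc and Npas4 rose with bicuculline in both shRNAs, Fos by 6.40 and 6.19 on the log2 scale (edgeR adjusted p = 5.76e-13 and 5.85e-13). With knockdown at baseline Fos was higher by 0.58, past both thresholds used below (edgeR adjusted p = 0.0437). In that comparison Npas4, at 0.61, and Arc, at -0.39, missed the adjusted p (0.0712 and 0.311 in edgeR). The study reports these genes as unaltered by the knockdown. Their part in the results below was not tested. Among neuronal markers, Tubb3 fell and Nefl rose with bicuculline in both shRNAs. Of the 6 excitatory markers, Slc17a6 rose with bicuculline, by 1.54 and 1.53 on the log2 scale, and Neurod6 had log2 fold changes of -1.29 and -1.14. The part of these markers in the results below was not tested. The 6 GABAergic markers summed to between 1745 and 2075 CPM in Control-shRNA baseline and between 2571 and 2941 CPM in Control-shRNA bicuculline. In the Dnmt3a1-shRNA groups these sums ran from 1375 to 1595 CPM at baseline and from 2245 to 2638 CPM with bicuculline. Of that list 4 genes, Gad1, Gad2, Dlx1 and Sst, rose with bicuculline in both shRNAs, so this list moved with the bicuculline results below, and its part in them was not tested. The 6 astrocyte markers summed to between 253 and 439.9 CPM in Control-shRNA baseline and between 332 and 594 CPM in Dnmt3a1-shRNA baseline, and 5 of 6 microglial markers stayed under 1 CPM in every library.

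The promoter windows of RefSeq, on GRCm38.p6, reach from 250 bases before to 50 bases after an annotated start and gave 31 windows for 21 of the 28 genes. CpG is the dinucleotide that DNA methyltransferases act on, so its count in these windows is shown, although methylation was not measured here. The windows of these genes held a median of 23 CpG against 7 over all 32851 windows, with a range from 2 to 63. Of 4 searched motifs on both strands, the EGR motif GCGNGGGCG was found in 7 of the 31 windows and in 5.55% of all windows. That motif itself holds CpG, and the comparison was not matched for CpG count. The other 3 motifs were found in none of the 31, namely TGACGTCA, present in 1.79% of all windows, TGANTCA in 7.81% and CACGTG in 7.15%. Printed here are 4 sequences of genes whose levels differed between groups below, each 250 bases long and ending 1 base before an annotated start, on stretches that hold no annotated exon. Lower case is used throughout, and capitals mark CpG.
Scn2a first start, chr2:65620519-65620768, plus strand: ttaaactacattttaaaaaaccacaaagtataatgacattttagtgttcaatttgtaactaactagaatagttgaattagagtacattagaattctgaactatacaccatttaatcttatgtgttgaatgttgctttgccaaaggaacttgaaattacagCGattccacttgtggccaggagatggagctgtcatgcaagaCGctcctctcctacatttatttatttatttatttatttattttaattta
Scn2a second start, chr2:65668436-65668685, plus strand: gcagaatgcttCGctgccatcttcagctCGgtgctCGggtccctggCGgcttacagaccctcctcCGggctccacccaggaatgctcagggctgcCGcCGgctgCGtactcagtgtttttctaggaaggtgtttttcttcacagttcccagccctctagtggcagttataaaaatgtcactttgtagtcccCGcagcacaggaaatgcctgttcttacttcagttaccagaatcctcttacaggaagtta
Cacna1d internal start, chr14:30353487-30353736, minus strand: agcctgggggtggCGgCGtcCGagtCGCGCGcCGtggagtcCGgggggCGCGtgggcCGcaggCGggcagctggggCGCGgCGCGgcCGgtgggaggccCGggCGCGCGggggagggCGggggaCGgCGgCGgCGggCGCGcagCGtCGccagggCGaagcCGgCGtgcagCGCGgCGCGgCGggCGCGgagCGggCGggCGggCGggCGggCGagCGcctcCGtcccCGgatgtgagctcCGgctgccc
Hcn4, chr9:58822699-58822948, plus strand: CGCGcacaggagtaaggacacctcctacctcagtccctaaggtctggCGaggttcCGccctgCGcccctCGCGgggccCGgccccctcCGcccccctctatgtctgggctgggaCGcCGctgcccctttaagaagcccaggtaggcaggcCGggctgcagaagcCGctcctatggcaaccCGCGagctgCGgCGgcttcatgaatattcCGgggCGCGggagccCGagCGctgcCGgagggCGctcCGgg
The first Scn2a stretch held 2 CpG, the second 9, that of Hcn4 25 and the internal one of Cacna1d 50. Windows that an exon overlaps were not printed. Among them, counted over the whole window, the upstream one of Cacna1d held 4 CpG, that of Scn2b 2 and that of Scn4b 26. A link of CpG count to the direction of change was not tested.

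Levels between genes were compared as TPM, the deposited measure that is scaled for transcript length. In Control-shRNA baseline the most abundant of the 28 was Cacnb3, a calcium channel beta subunit, at 158 ± 7.65 TPM, followed by the sodium channel beta subunit Scn3b at 140 ± 17.95 TPM (SD, n = 4). Hcn2 stood at 108 ± 7.92 TPM, Cacna1a, the P/Q-type pore of presynaptic terminals, at 102 ± 9.86 TPM, and Scn2a, the main sodium channel pore of young excitatory neurons, at 100.2 ± 10.8 TPM. These 3 lay within 1 SD of each other. At the other end, Scn4a, the skeletal muscle sodium channel, had between 0 and 4 counts in every library and was the only 1 of the 28 that did not pass the filter on low counts. Scn9a, Scn4b and Cacna2d4 passed it with levels near 1 CPM.

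Within families the make-up differed between groups. Scn2a made up 53.9% ± 0.727 of the summed TPM of the 6 sodium channel alpha subunits in Control-shRNA baseline and 47.9% ± 1.81 in Control-shRNA bicuculline (SD, n = 4). Scn8a, the alpha subunit that dominates at the mature axon initial segment, made up 23.2% ± 0.765 and 27.8% ± 2.66 of the same sum. Scn1a, typical of fast-spiking interneurons, made up 12.3% ± 0.503 and 15.6% ± 1.25. The ranges of the libraries did not overlap between baseline and bicuculline for Scn2a, Scn8a and Scn1a in Control-shRNA, whereas in Dnmt3a1-shRNA they overlapped for all 3. Among the HCN subunits, Hcn2 held 64.5% ± 0.802 in Control-shRNA baseline, Hcn3 27.2% ± 0.417 and Hcn4 8.31% ± 0.417. The Hcn4 share was 12.2% ± 1.26 in Control-shRNA bicuculline, 11.4% ± 1.15 in Dnmt3a1-shRNA baseline and 14.4% ± 0.743 in Dnmt3a1-shRNA bicuculline. All 12 libraries of those groups lay above the highest Control-shRNA baseline library, at 8.66%. Shares are fractions of a sum, so 1 gene's share falls when another gene of the family rises.

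**Figure D1:**
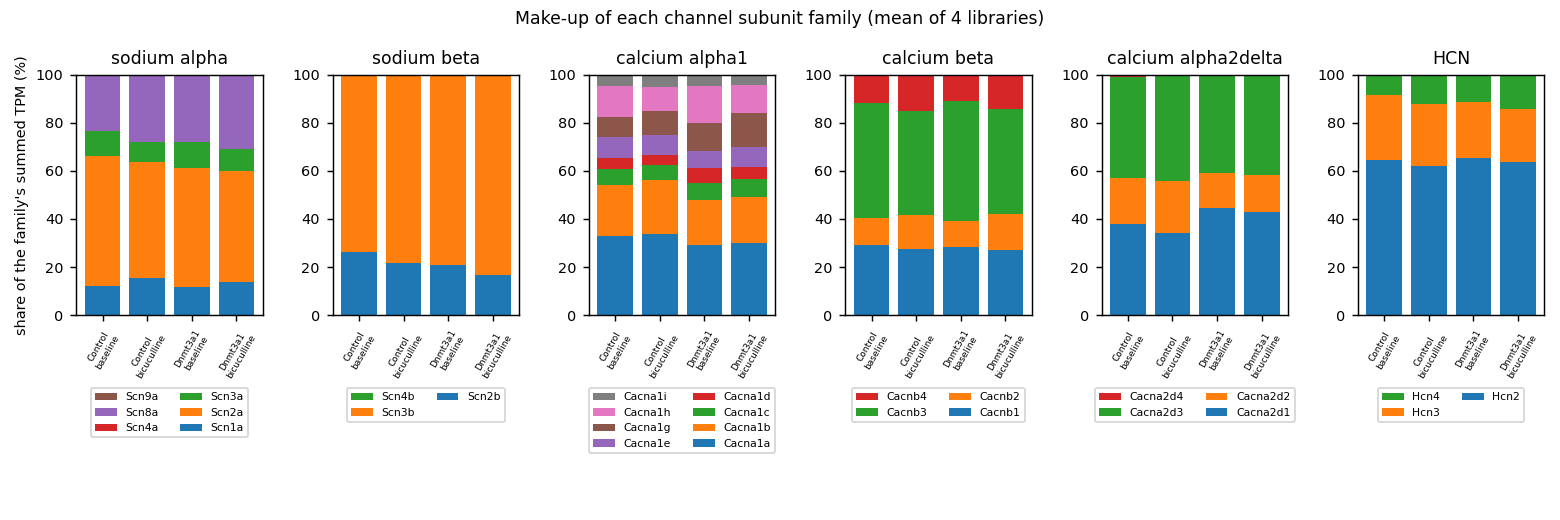
Each bar gives a group's mean share, over 4 libraries, of the summed TPM of a family (y axis, percent), with 1 colour per gene in each panel. The Scn2a part is 53.9% in Control-shRNA baseline and 47.9% in Control-shRNA bicuculline, and the Hcn4 part is smallest in Control-shRNA baseline, at 8.31%.

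The first comparison asked what bicuculline did to these genes in Control-shRNA cultures. Scn3a, Scn2a and, by less, Scn2b were lower and Hcn4 was higher after 4 h, while the calcium channel pores had log2 fold changes between -0.27 and 0.21. Calls required an adjusted p under 0.05 in edgeR's quasi-likelihood test, over all 17222 tested genes, and a log2 fold change beyond 0.5 in either direction. By this rule 4 of 27 tested subunits were called, 14.8%, against 21.9% of all tested genes. Of these, 2 were higher, where the background was 10.8%, and 2 were lower, where it was 11.1%. At the adjusted p alone 11 of 27 passed, 40.7%, against 41.4% of all genes. The median log2 fold change was -0.01 over the 27 and 0.01 over all genes.

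Scn3a, the sodium channel alpha subunit of the embryonic and newborn brain, stood at 67.6, 63.7, 70.6 and 70.7 CPM in Control-shRNA baseline and at 37.7, 38.6, 41.7 and 35.6 CPM in Control-shRNA bicuculline. In Dnmt3a1-shRNA it was at 79.6, 58.4, 66.5 and 75.8 CPM at baseline and at 45.3, 38.0, 42.1 and 37.2 CPM with bicuculline. Every bicuculline library lay below every baseline library. The fall was 0.83 ± 0.09 on the log2 scale in Control-shRNA, to 0.563 of baseline (SE, edgeR adjusted p = 9.69e-07), and the log2 change in Dnmt3a1-shRNA was -0.79 ± 0.09 (edgeR adjusted p = 1.26e-06).

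Scn2a stood at 359, 317, 358 and 377 CPM in Control-shRNA baseline and at 267, 241, 235 and 217 CPM in Control-shRNA bicuculline. In Dnmt3a1-shRNA it was at 375, 219, 375 and 363 CPM at baseline and at 271, 207, 253 and 211 CPM with bicuculline. The Control-shRNA groups did not overlap, whereas in Dnmt3a1-shRNA the second baseline library lay among the bicuculline libraries. The log2 fold change was -0.56 ± 0.14 in Control-shRNA (edgeR adjusted p = 0.0032) and -0.50 ± 0.14 in Dnmt3a1-shRNA (edgeR adjusted p = 0.0061). The call in Dnmt3a1-shRNA rests on the fold threshold, since leaving out 1 library at a time gave log2 fold changes from -0.66 to -0.44, and 6 of 16 such fits ended the call. Without the second Dnmt3a1-shRNA baseline library, the low one, the log2 fold change was -0.66 (edgeR adjusted p = 2.05e-05).

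The other tested alpha subunits, Scn1a, Scn8a and Scn9a, missed the adjusted p with TMM scaling. Scn8a had log2 fold changes of -0.16 ± 0.08 in Control-shRNA and -0.20 ± 0.08 in Dnmt3a1-shRNA (edgeR adjusted p = 0.158 and 0.0603), and Scn1a of -0.06 ± 0.09 and -0.15 ± 0.09. With library sizes alone as the scaling, which lowered the median of all genes by 0.15 and 0.16, both passed, Scn8a with adjusted p = 0.00609 and 0.00243 and Scn1a with 0.0264 and 0.00359 in edgeR. With the replicate number as a block both passed in Dnmt3a1-shRNA (edgeR adjusted p = 0.0172 and 0.0343).

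Scn2b, a beta subunit that raises surface sodium channel density, stood at 106, 102, 106 and 110 CPM in Control-shRNA baseline and at 76.6, 75.3, 74.9 and 72.9 CPM in Control-shRNA bicuculline. In Dnmt3a1-shRNA it was at 130, 109, 121 and 117 CPM at baseline and at 83.4, 78.3, 88.8 and 78.8 CPM with bicuculline. All 8 bicuculline libraries lay below all 8 baseline libraries. The log2 fold change was -0.50 ± 0.06 in Control-shRNA (edgeR adjusted p = 2.11e-06), just short of the fold threshold, and -0.54 ± 0.06 in Dnmt3a1-shRNA (edgeR adjusted p = 6.68e-07), just past it. So the gene fell by about as much in both shRNAs, although only the second was called. Scn3b, the most abundant beta subunit, had log2 fold changes of -0.10 ± 0.11 and -0.13 ± 0.11 (edgeR adjusted p = 0.467 and 0.348).

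Scn4b, the beta subunit tied to resurgent sodium current, was called higher in Control-shRNA, by 0.59 ± 0.23 on the log2 scale (edgeR adjusted p = 0.0481), at levels of 0.527, 0.587, 0.761 and 0.616 CPM at baseline and 0.707, 0.994, 0.927 and 1.12 CPM with bicuculline. In Dnmt3a1-shRNA it was at 0.914, 0.752, 0.794 and 0.842 CPM at baseline and 0.713, 0.704, 1.32 and 0.849 CPM with bicuculline, with overlapping groups (log2 fold change 0.12 ± 0.22, edgeR adjusted p = 0.69). This call was the least firm, being lost in 11 of the 16 fits that left out 1 library, DESeq2 and the other settings named in the closing section.

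**Figure D2:**
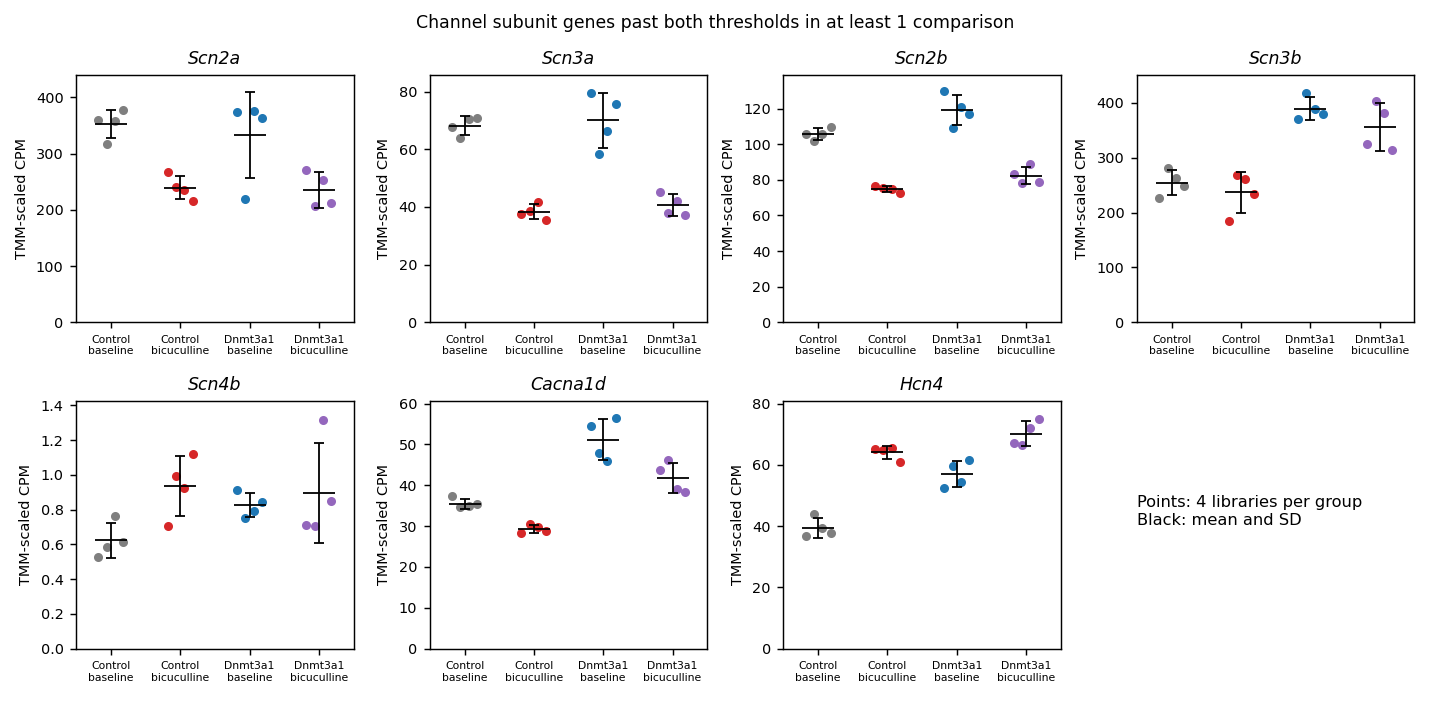
Points are the 4 libraries of each group, on a y axis of TMM-scaled CPM that starts at 0, and black bars are the mean and SD. For Scn3a and Scn2b all bicuculline libraries lie below all baseline libraries, and for Hcn4 all Control-shRNA baseline libraries, at most 44.1 CPM, lie below the libraries of the other groups.

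No calcium channel subunit reached the fold threshold with bicuculline in either shRNA. At the adjusted p alone, the N-type pore Cacna1b, the L-type pore Cacna1d and the T-type pore Cacna1h were lower in Control-shRNA, with log2 fold changes of -0.17 ± 0.06, -0.27 ± 0.07 and -0.25 ± 0.08 (edgeR adjusted p = 0.0298, 0.00665 and 0.0164). The T-type pore Cacna1g moved the other way, by 0.21 ± 0.07 (edgeR adjusted p = 0.0258), so the T-type genes did not move as a group. The beta subunit Cacnb4 was higher by 0.40 ± 0.08 (edgeR adjusted p = 0.000708) and the alpha2delta subunit Cacna2d2 by 0.28 ± 0.08 (edgeR adjusted p = 0.012). The same 6 genes passed in Dnmt3a1-shRNA in the same directions, Cacnb4 by 0.45 ± 0.08. The beta subunit Cacnb2 passed in Dnmt3a1-shRNA (log2 fold change 0.49 ± 0.18, edgeR adjusted p = 0.0355), against 0.38 ± 0.18 in Control-shRNA (edgeR adjusted p = 0.108). With library sizes alone as the scaling, Cacna1g and Cacna2d2 missed the threshold in Control-shRNA (edgeR adjusted p = 0.688 and 0.373) and in Dnmt3a1-shRNA (0.578 and 0.558), where Cacnb2 missed it too (0.0941). Under the same scaling the L-type pore Cacna1c passed in both shRNAs, with log2 fold changes of -0.31 and -0.27 (edgeR adjusted p = 0.00207 and 0.00533), and Cacnb1, Cacnb3 and Cacna1i passed as lower in Dnmt3a1-shRNA (0.0194, 0.00118 and 0.0357). With the replicate number as a block, Cacnb2 and Cacna2d3 also passed the adjusted p in Control-shRNA (0.00127 and 0.0147), and Cacnb3 and Cacna2d3 in Dnmt3a1-shRNA (0.0318 and 0.0236). The R-type pore Cacna1e and Cacna2d1 passed in neither shRNA in any of these 3 fits.

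In Dnmt3a1-shRNA cultures, 3 of 27 subunits were called with bicuculline, 11.1%, against 25.8% of all genes, and all 3, Scn2a, Scn3a and Scn2b, were lower, against 13.2% of all genes lower and 12.6% higher. At the adjusted p alone 11 of 27 passed against 46% of all genes. Between the 2 shRNAs, which share no libraries in these contrasts, 23 of 27 log2 fold changes had the same sign, 85.2% against 86.2% of all tested genes, and 10 passed the adjusted p in both, 37% against 36.1%. The correlation across these 27 genes was 0.898 (Pearson), against 0.882 across all tested genes, where genes are not independent replicates.

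Hcn4, a slowly opening, cAMP-sensitive HCN subunit, stood at 36.8, 44.1, 39.6 and 37.6 CPM in Control-shRNA baseline and at 65.2, 64.9, 65.7 and 61.0 CPM in Control-shRNA bicuculline. In Dnmt3a1-shRNA it was at 52.5, 59.7, 54.5 and 61.6 CPM at baseline and at 67.1, 66.5, 72.0 and 75.1 CPM with bicuculline. Neither pair of groups overlapped, and every Dnmt3a1-shRNA baseline library lay above every Control-shRNA baseline library. With bicuculline Hcn4 rose by 0.70 ± 0.07 in Control-shRNA, 1.62-fold (edgeR adjusted p = 3.18e-07), and by 0.30 ± 0.07 in Dnmt3a1-shRNA, 1.23-fold (edgeR adjusted p = 0.00159), which is under the fold threshold. With library sizes alone as the scaling the second missed the adjusted p (0.172 in edgeR). Hcn2 and Hcn3 missed the adjusted p with TMM scaling, with library sizes alone and with the block, with TMM log2 fold changes between -0.10 and 0.11.

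The next comparison asked how Dnmt3a1 knockdown changed these genes without stimulation. Scn3b, Cacna1d and Hcn4 were higher in Dnmt3a1-shRNA baseline than in Control-shRNA baseline, by 1.44 to 1.53-fold, and so, at the adjusted p alone, were the T-type pores Cacna1g and Cacna1h. In all, 3 of 27 subunits were called, 11.1%, against 5.83% of all genes. All 3 were higher, where 1.76% of all genes were called higher and 4.07% lower. At the adjusted p alone 10 of 27 passed, 37%, 8 of them higher, against 16.3% of all genes. The median log2 fold change was 0.10 over the 27 and 0.01 over all genes. Among marker genes, Tubb3 was higher by 0.51 in the same comparison. Pdgfrb, the only 1 called of 5 tested fibroblast and vessel markers, was higher by 0.75. Sst had a log2 fold change of -0.52 and the microglial marker Csf1r of -0.66, and Csf1r was also called with bicuculline, at -0.75. The median log2 fold change of the 6 astrocyte markers was 0.404 at baseline and 0.425 with bicuculline. The part of these markers in the rises below was not tested.

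Scn3b, a beta subunit that shifts sodium channel gating, stood at 227, 282, 263 and 248 CPM in Control-shRNA baseline and at 370, 419, 389 and 380 CPM in Dnmt3a1-shRNA baseline. With bicuculline it was at 185, 268, 260 and 234 CPM in Control-shRNA and at 326, 404, 381 and 313 CPM in Dnmt3a1-shRNA. All 8 Dnmt3a1-shRNA libraries lay above all 8 Control-shRNA libraries. The rise was 0.61 ± 0.11 at baseline, 1.53-fold (edgeR adjusted p = 0.000691), and 0.59 ± 0.11 with bicuculline, 1.5-fold (edgeR adjusted p = 0.000999). The second call was lost by the fold threshold without the first Control-shRNA bicuculline library, at 0.48. With limma on log2 TPM, an alternative given in the closing section, both calls were lost, the first by the fold threshold, at 0.495 and 0.498.

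Cacna1d, the L-type pore that opens at comparatively negative potentials, stood at 37.3, 34.6, 34.8 and 35.3 CPM in Control-shRNA baseline and at 54.4, 47.8, 46.0 and 56.4 CPM in Dnmt3a1-shRNA baseline. With bicuculline it was at 28.3, 30.6, 29.8 and 28.8 CPM in Control-shRNA and at 43.7, 46.2, 39.1 and 38.4 CPM in Dnmt3a1-shRNA. All Dnmt3a1-shRNA libraries lay above all Control-shRNA libraries, also across conditions. It rose by 0.53 ± 0.07 at baseline (edgeR adjusted p = 0.0001) and by 0.51 ± 0.07 with bicuculline (edgeR adjusted p = 0.000155). Both lie near the fold threshold, and the calls were lost under 5 and 6 of 26 alternatives, with log2 fold changes of 0.44 in both comparisons with library sizes alone and down to 0.48 and 0.46 without the fourth Dnmt3a1-shRNA baseline or the second Dnmt3a1-shRNA bicuculline library. The call at baseline was also lost without the first Dnmt3a1-shRNA baseline library, and that with bicuculline without the first library of either bicuculline group. The other L-type pore, Cacna1c, had log2 fold changes of 0.13 ± 0.09 and 0.16 ± 0.09 and passed neither test. Annotated exons of Cacna1d overlap those of Chdh on the opposite strand, whose level was between 0.0973 and 0.889 CPM in all libraries.

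Hcn4 was higher by 0.53 ± 0.07 at baseline, 1.44-fold (edgeR adjusted p = 4.79e-05). This call was lost by the fold threshold under 5 of 26 alternatives, among them library sizes alone (0.45) and fits without the first Control-shRNA baseline or the fourth Dnmt3a1-shRNA baseline library (0.498 and 0.49). With bicuculline the log2 fold change was 0.13 ± 0.07 (edgeR adjusted p = 0.212). The rise with bicuculline in Control-shRNA and the rise with knockdown at baseline are measured against the same 4 Control-shRNA baseline libraries.

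Among members short of the fold threshold, Cacna1g, the T-type pore of rebound bursting, was higher by 0.48 ± 0.07 at baseline and by 0.49 ± 0.07 with bicuculline (edgeR adjusted p = 0.000162 and 0.000147). Its libraries ran from 45.5 to 49.98 CPM in Control-shRNA baseline and from 64.2 to 71.9 CPM in Dnmt3a1-shRNA baseline, with no overlap. The T-type pore Cacna1h was higher by 0.38 ± 0.08 and 0.32 ± 0.08 (edgeR adjusted p = 0.00264 and 0.00917). The third T-type pore, Cacna1i, had log2 fold changes of 0.10 ± 0.11 and -0.08 ± 0.11. Cacna1b was lower, at -0.22 ± 0.06 and -0.26 ± 0.06 on the log2 scale (edgeR adjusted p = 0.0166 and 0.00553), and so was Cacna2d2, at -0.27 ± 0.08 and -0.31 ± 0.08 (edgeR adjusted p = 0.0397 and 0.0158). At baseline alone the beta subunits Cacnb1 and Cacnb3 and the sodium channel Scn2b also passed, higher by 0.15 ± 0.05, 0.27 ± 0.09 and 0.17 ± 0.06. Those last 3 missed the threshold with library sizes alone as the scaling (edgeR adjusted p = 0.379, 0.0641 and 0.324), a scaling that lowers the median of all genes by 0.07 in this comparison.

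With the replicate number as a block, Scn8a, Cacna2d1 and Cacna2d4 also passed the adjusted p in the knockdown comparison at baseline (0.0125, 0.000639 and 0.0245). Cacna2d4 was then called lower, at -0.76 ± 0.24 on the log2 scale, at a level near 1 CPM or below in both groups.

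With bicuculline present, 2 of 27 subunits were called with knockdown, Scn3b and Cacna1d, both higher, 7.41% against 5.89% of all genes, of which 2% were higher and 3.9% lower. At the adjusted p alone 8 of 27 passed against 17.7% of all genes. These 8 were Scn3b, Cacna1d, Cacna1g, Cacna1h and Cacna2d1 on the higher side, and Cacna1b, Cacna2d2 and Hcn3 on the lower side. Hcn3 was at -0.34 ± 0.09 (edgeR adjusted p = 0.0177) and Cacna2d1, the alpha2delta subunit that binds gabapentin, at 0.42 ± 0.14 (edgeR adjusted p = 0.0456). With the replicate number as a block, Scn1a also passed as lower, and Scn8a and Cacnb2 as higher (edgeR adjusted p = 0.0166, 0.0393 and 0.0269). With library sizes alone as the scaling, Scn1a and Cacna1a also passed as lower (edgeR adjusted p = 0.0249 and 0.0476). Over the baseline and bicuculline comparisons, which share no libraries, 22 of 27 log2 fold changes had the same sign, 81.5% against 76.3% of all tested genes, and 6 passed in both, 22.2% against 10.4%. Their Pearson correlation was 0.878, against 0.554 across all tested genes.

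**Figure D3:**
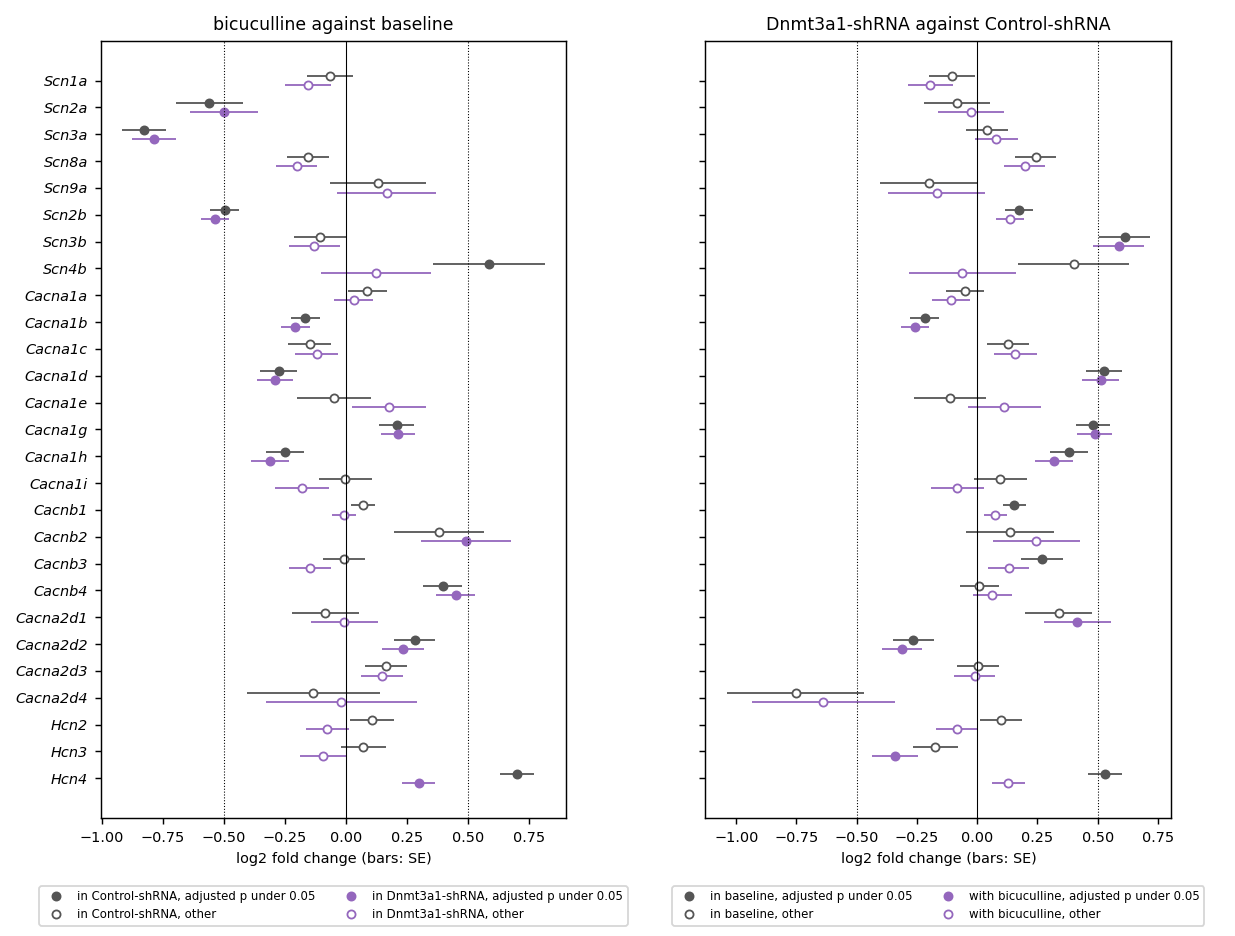
Log2 fold changes (x axis) of the 27 tested genes, with SE bars, for bicuculline against baseline on the left and Dnmt3a1-shRNA against Control-shRNA on the right. Filled points passed the adjusted p of 0.05, dotted lines mark the fold threshold of 0.5, and the largest fall is that of Scn3a with bicuculline (-0.83).

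The interaction asked whether the bicuculline effect differed between the shRNAs. edgeR called 0 of 27 subunits and 0% of all genes. At an unadjusted p under 0.05 there were 1 subunit and 852 genes, 3.7% of the 27 against 4.95% of all genes. voom with limma and DESeq2 called 0 subunits too, and DESeq2 called 18 genes in all. The 1 subunit was Hcn4, whose bicuculline effect was smaller in Dnmt3a1-shRNA by a log2 difference of -0.40 ± 0.10 (unadjusted p = 0.00068 in edgeR, adjusted p = 0.425). Over 25 alternatives the log2 difference of Hcn4 ran from -0.46 to -0.36 and the adjusted p from 0.105 to 1. For the other members that were called, the interval of 2 SE around the log2 difference ran from -0.33 to 0.45 for Scn2a, from -0.21 to 0.29 for Scn3a and from -0.23 to 0.20 for Cacna1d. It ran from -1.10 to 0.18 for Scn4b, the widest, from -0.32 to 0.28 for Scn3b and from -0.20 to 0.12 for Scn2b.

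A mean transcript length was also derived for each gene and library, from the ratio of the deposited count to the deposited TPM, as a measure of which of a gene's transcripts the reads were assigned to. It was tested with limma on the log2 scale in 12398 genes with more than 1 length, 23 of them channel subunits, and this measure was chosen after the data were seen. With bicuculline 2 of 23 subunits were called shorter in Control-shRNA, against 3.32% of all genes in either direction and 2.81% shorter. In Dnmt3a1-shRNA 3 of 23 were called, all shorter, against 4.84% and 4.03%. With knockdown limma called 0 of 23 at baseline and 0 with bicuculline, where 0.145% and 0.21% of all genes were called, and 2 subunits had an unadjusted p under 0.05 in each, 8.7% against 5.86% and 7.95% of all genes.

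Cacna1c, the L-type pore of dendrites and soma, had a mean transcript length of 11472, 11081, 11201 and 10893 nt in Control-shRNA baseline and of 9949, 10350.1, 9761 and 9517 nt in Control-shRNA bicuculline. In Dnmt3a1-shRNA the lengths were 10674, 10069, 10496 and 10464 nt at baseline and 9254, 9239, 9578 and 9378 nt with bicuculline. Baseline and bicuculline libraries did not overlap within either shRNA. The log2 change was -0.18 ± 0.03 in Control-shRNA and -0.16 ± 0.03 in Dnmt3a1-shRNA (limma adjusted p = 0.00156 and 0.00257), while the CPM of the gene missed the adjusted p with TMM scaling and passed it with library sizes alone, as given above.

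Cacna2d1 had lengths of 6666, 6586, 6491 and 6475 nt in Control-shRNA baseline and of 6201, 6329, 6326 and 6219 nt in Control-shRNA bicuculline. In Dnmt3a1-shRNA they were 6674, 6660.1, 6569 and 6565 nt and then 6202, 6160.2, 6342 and 6414 nt. The groups again did not overlap. The log2 changes were -0.07 ± 0.02 and -0.08 ± 0.02 (limma adjusted p = 0.0224 and 0.00709). The call in Control-shRNA was lost in 4 of 16 fits that left out 1 library, with adjusted p up to 0.0712, and with the replicate block (adjusted p = 0.0612).

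Scn3a, whose level also fell, had lengths of 7411, 8018, 7292 and 7509 nt in Control-shRNA baseline and of 6636, 7053, 6733 and 7150.1 nt in Control-shRNA bicuculline. In Dnmt3a1-shRNA they were 7670.2, 7692, 7478 and 7156 nt and then 7034, 6393, 6681 and 5839 nt. The groups did not overlap in either shRNA. The log2 change was -0.14 ± 0.05 in Control-shRNA (limma adjusted p = 0.231) and -0.22 ± 0.05 in Dnmt3a1-shRNA (limma adjusted p = 0.0282), and the second call was lost in 5 of 16 fits that left out 1 library. Scn2a, by contrast, had log2 length changes of -0.01 ± 0.03 and 0.00 ± 0.03. The largest log2 length changes of the 23 subunits were those of Cacna1b, at -0.296 ± 0.078 in Control-shRNA and -0.225 ± 0.078 in Dnmt3a1-shRNA. They missed the threshold (limma adjusted p = 0.061 and 0.144). For Hcn4 the length was 6118 nt in every library.

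**Figure D4:**
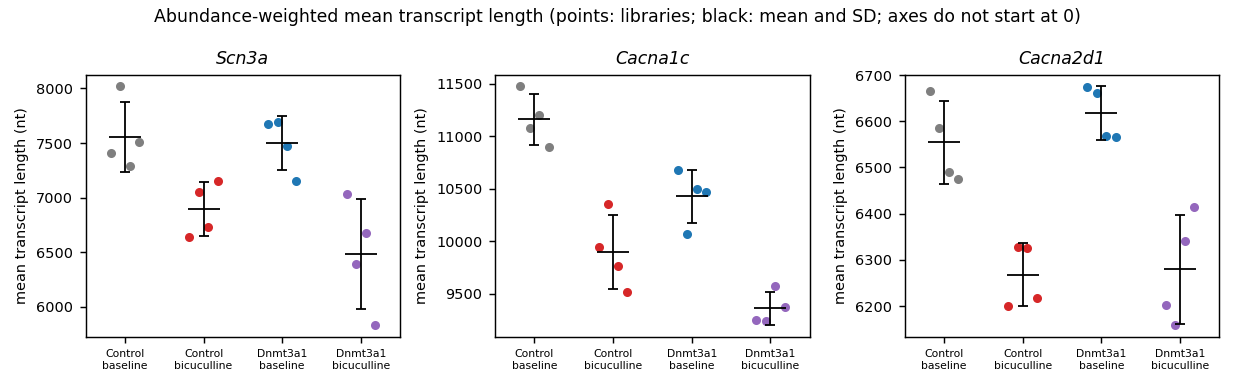
Points are the mean transcript length in nt (y axis, not starting at 0) of each library for Scn3a, Cacna1c and Cacna2d1, with the group mean and SD in black. Bicuculline libraries lie below the baseline libraries of the same shRNA in each panel.

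Genes whose products bind or regulate these channels were described from a list of 32, of which 29 were tested. With bicuculline 5 were called in Control-shRNA and 6 in Dnmt3a1-shRNA, 17.2% and 20.7% against 21.9% and 25.8% of all genes. All of these were higher, where 10.8% and 12.6% of all genes were called higher, and all were among the 15 calcium channel partners. The 10 sodium channel partners, which include intracellular FGFs, ankyrins and Nrcam, had median log2 fold changes of 0.09 with bicuculline in both shRNAs and of 0.03 and 0.04 with knockdown. The strongest calls were RGK GTPases, small G proteins that bind calcium channel beta subunits and inhibit the channel.

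Rem2 stood at 14.8, 12.4, 15.5 and 15.3 CPM in Control-shRNA baseline and at 55.5, 61.7, 57.8 and 56.9 CPM in Control-shRNA bicuculline, a rise of 1.998 ± 0.11 on the log2 scale (edgeR adjusted p = 2.17e-10). In Dnmt3a1-shRNA it rose by 2.33 ± 0.11 (edgeR adjusted p = 3.27e-11), from a baseline that was lower than in Control-shRNA, with a log2 fold change of -0.55 ± 0.11 (edgeR adjusted p = 0.00287). Gem rose by 2.05 ± 0.23 and 2.22 ± 0.23 (edgeR adjusted p = 1.5e-06 and 3.62e-07). Rrad rose by 2.97 ± 0.37 in Control-shRNA and by 4.39 ± 0.37 in Dnmt3a1-shRNA (edgeR adjusted p = 5.47e-06 and 3.07e-08), from at most 0.395 CPM at baseline to at most 3.16 and 8.96 CPM. With bicuculline present, Rrad was higher with knockdown by 1.31 ± 0.28 (edgeR adjusted p = 0.00373). The adaptor genes Stac and Stac2 rose by 0.58 ± 0.21 and 0.54 ± 0.10 in Control-shRNA and by 0.75 ± 0.22 and 0.52 ± 0.10 in Dnmt3a1-shRNA. Cabp1 was called with bicuculline in Dnmt3a1-shRNA alone, higher by 0.56 ± 0.06 (edgeR adjusted p = 7.61e-07). Unc80, a subunit of the sodium leak channel complex, was lower with knockdown at baseline, with a log2 fold change of -0.65 ± 0.12 (edgeR adjusted p = 0.00173).

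**Figure D5:**
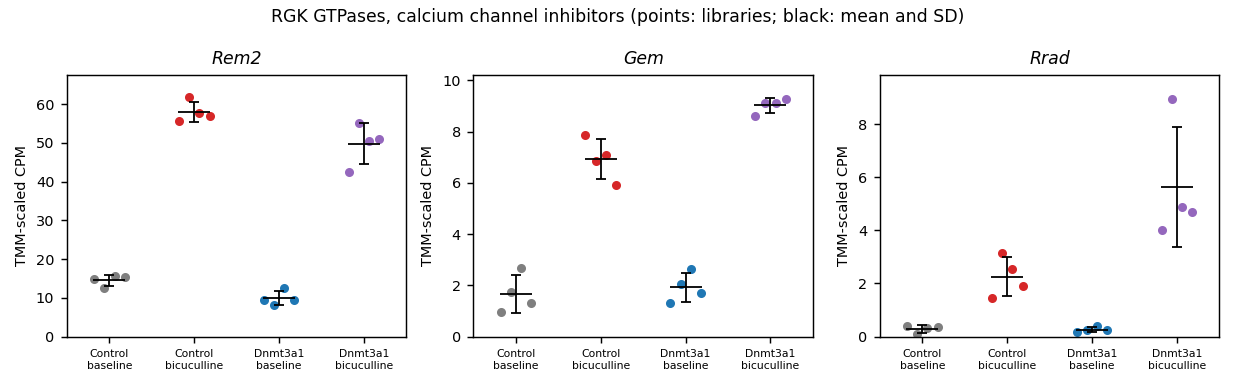
Points are the 4 libraries of each group in TMM-scaled CPM (y axis from 0) for Rem2, Gem and Rrad, with mean and SD in black. All bicuculline libraries lie above all baseline libraries in each panel, from 12.4 to 15.5 CPM against 55.5 to 61.7 CPM for Rem2 in Control-shRNA.

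Annotated exons of 9 of the 28 genes overlap an exon of another gene on the opposite strand, and whether reads were counted by strand is not given in the sources used here. Those other genes were at 1.44 CPM or less in every library, with Gm13629, opposite Scn9a, the highest of them. Scn9a itself lay between 0.739 and 1.42 CPM, so its level is uncertain.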

How the data were processed

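Per the labels and the methods, 500 ng of total RNA from each of 16 primary hippocampal cultures was sequenced on a BGISeq-500 platform, and the authors trimmed the reads and quantified them with kallisto against transcripts of GRCm38.p6. The submitters' processing notes give Trim Galore 0.6.4. For each library the authors deposited estimated counts per gene and TPM per gene.

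Estimated counts were rounded. R 4.3.3 with edgeR 4.0.16 was used for the tests, with TMM scaling, edgeR's filter on low counts and 1 quasi-likelihood model of the 4 groups, with Benjamini-Hochberg adjustment over 17222 genes. Differences between groups are given as log2 fold change ± SE from that model. Symbols, coordinates and exons came from GENCODE M21 on the same build, matched without the version of the identifier, which was the same for 21 of the 28 genes.

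Mean transcript length was the deposited estimated count divided by the deposited TPM, scaled with 1080 genes of 1 transcript, all of which came out within 1% of their annotated length, and tested with limma 3.58.1 where a gene had at least 10 counts in every library. The 28 genes, the partner and marker lists and the comparisons were chosen with earlier results of these data known. Genes were named with values per library where called in at least 1 comparison, and partners where called. Count and length tests were checked on simulated data.

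Replicate numbers 1 to 4 recur in each group. After subtraction of group means, libraries with the same number correlated over 0.1 in all 4 pairs of bicuculline in Control-shRNA (0.142 to 0.221) and of knockdown at baseline (0.204 to 0.355), and not in all pairs of the other comparisons (lowest 0.0631). All of these correlations were positive. In every group the first library had the lowest TMM factor and the largest mitochondrial share of counts. The third library had the highest factor and the smallest share in every group. The numbers may thus mark shared preparations in all 4 groups, which the labels do not state. The main tests hold no term for such pairing. For Scn3b with knockdown at baseline the SE was 0.106 without the block and 0.060 with it. Libraries of a group differed beyond sampling noise, with 7.92 to 44.7 as the chi-square per degree of freedom. Alternatives were voom with limma, DESeq2 1.42.0, other scalings, filters and thresholds, limma on log2 TPM, the replicate block and fits without 1 library.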

Additional observations from a re-analysis of the deposited data

Results flagged for a closer look

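Of 120 groups of 4 libraries examined, 8 held a library that stood apart from the other 3 by Dixon's test at the 95% level, and chance alone flags about 1 group in 20. Scn2a was at 219 CPM in the second Dnmt3a1-shRNA baseline library, against 363 to 375 CPM in the others. Cacna2d1 was at 268 CPM in the first Dnmt3a1-shRNA bicuculline library against 201 to 207 CPM, and Cacna1b in the same library was at 149 CPM against 140 to 141 CPM. Cacna1e was at 151 CPM in the fourth Control-shRNA bicuculline library against 167 to 170 CPM, and Hcn4 in the same library was at 61.0 CPM against 64.9 to 65.7 CPM. Cacna1g was at 80.6 CPM in the third Dnmt3a1-shRNA bicuculline library against 76.9 to 77.4 CPM. Cacna2d3 was at 122 CPM in the third Dnmt3a1-shRNA baseline library against 98.2 to 102 CPM, and Scn9a was at 1.01 CPM in the fourth against 0.808 to 0.826 CPM. The cause was not tested for any of them.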

How the results depend on the processing

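The number of subunits past the thresholds changed with the fold threshold. Without it, 11 and 11 subunits passed with bicuculline in Control-shRNA and Dnmt3a1-shRNA, and 10 and 8 with knockdown at baseline and with bicuculline, and with a log2 threshold of 1 these counts were 0 in edgeR, which at unadjusted p under 0.05 had 11, 12, 13 and 11, or 40.7%, 44.4%, 48.1% and 40.7% against 48.2%, 51.8%, 28.8% and 31.2% of all genes. With limma on log2 TPM, for a pseudocount of 1 and for one of 0.1, the count was 5 for bicuculline in Dnmt3a1-shRNA, 1 for knockdown at baseline and 0 for knockdown with bicuculline. The 1 at baseline was a subunit other than Scn3b, Cacna1d and Hcn4. Those missed the fold threshold there, at 0.495, 0.370 and 0.389 with a pseudocount of 1 and 0.498, 0.389 and 0.411 with 0.1. With library sizes alone the count was 1 for each knockdown comparison. Values on the TPM scale and with library sizes alone carry a shift of the median of all genes, by -0.14 and -0.15 with bicuculline in Control-shRNA. Of all genes called, 50.8%, 51.1%, 69.8% and 66.1% were lower in those 4 comparisons, against 69%, 67.2%, 85.8% and 80.8% with library sizes alone and 71.4%, 69.4%, 90.9% and 85.5% with limma on log2 TPM and a pseudocount of 1. Fits without 1 library gave 1 to 4 called subunits for knockdown at baseline, the lowest without the fourth Dnmt3a1-shRNA baseline library, and 0 to 3 for knockdown with bicuculline, the lowest without the first Control-shRNA bicuculline library. For mean transcript length they gave 1 to 2 in Control-shRNA. With the replicate number as a block, 4, 2, 4 and 2 subunits were called for bicuculline in Control-shRNA and Dnmt3a1-shRNA and for knockdown at baseline and with bicuculline, against 4, 3, 3 and 2 without it. The block ended the call of Scn2a in Dnmt3a1-shRNA by the fold threshold (-0.49), and it left the interaction at 0 calls.

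Of 397 values of named genes under the alternatives, 334 kept their direction and call, 63 lost the call and none reversed. Scn3a and, in Control-shRNA, Scn2a kept the call under all 26 alternatives, which leave out the log2 threshold of 1, whereas Scn4b lost it under 17. Those included DESeq2 (adjusted p = 0.0788), no filter (0.158) and library sizes alone (0.171). Depth limits Scn4b, Scn9a and Cacna2d4, whose groups averaged 15.1 to 31.6 counts a library.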
